A study of Mus musculus with 7 samples.

Results

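The thioredoxin and peroxiredoxin system was read in 10 genes: the peroxiredoxins Prdx1 to Prdx6, the thioredoxins Txn1 and Txn2, the thioredoxin reductase Txnrd1 and the sulfiredoxin Srxn1. They were taken by symbol from a deposited expression table, and each of the 10 symbols had 1 row among the 35641 genes of the table. All 10 Ensembl IDs were found in GENCODE M21 (build GRCm38), from which the positions are given; the sources used here do not name the build and annotation behind the counts. Peroxiredoxins are abundant enzymes that reduce hydrogen peroxide and organic peroxides with a reactive cysteine. Most of them are returned to the reduced form by a thioredoxin, which a thioredoxin reductase reduces in turn with electrons from NADPH. Sulfiredoxin repairs peroxiredoxins whose cysteine has been oxidised too far. In neutrophils, which make superoxide and hydrogen peroxide with a phagocyte oxidase, and in macrophages, this chain is one of the main cytosolic and mitochondrial routes of peroxide removal.

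The study sequenced RNA of lung cells from female C57BL6 mice, with 4 libraries of a group called HF and 3 of a group called LF. The labels give neither the meaning of HF and LF nor an age or a treatment. For both groups they describe flow sorting of neutrophils by CD45+, CD11b+, Ly6Clo and Ly6G+. RNA was isolated with TRIzol LS and made into libraries with a SMART-Seq kit, which copies full-length transcripts from small amounts of RNA.

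The 3 libraries labelled LF went against that sort. Ly6g, which encodes the sort antigen, had 4431, 1301, 2378 and 4944 normalized counts in HF replicates 1 to 4, against 0.749, 0 and 8.22 in the libraries labelled LF. The summed level of 14 neutrophil markers was 434840 to 582745 normalized counts in HF, against 8928 to 9781 in the libraries labelled LF, and all 14 were higher in HF. The summed level of 14 monocyte and interstitial macrophage markers was 23017 to 32369 in HF, against 136404 to 145303 in the libraries labelled LF, and 11 of the 14 were lower in HF. Dendritic cell and MHC class II genes summed to 12480.1 to 30900.3 in HF, against 72398 to 88522 in the libraries labelled LF (8 of 10 lower). Platelet markers summed to 809 to 3796 in HF, highest in HF replicate 3, against 161 to 354 in the libraries labelled LF (6 of 8 higher). The difference between the groups and the difference in cell makeup therefore cannot be told apart, and this holds for every comparison that follows. The columns labelled LF are numbered 6, 7 and 8 in the table and 1 to 3 in the labels, so they are called LF6, LF7 and LF8 and carry no replicate number. Depth was 13943173 to 16599658 reads in HF and 16974428 to 18983351 reads in the libraries labelled LF.

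The system did not move as a block. Of the 10 genes, 4 were higher in HF (Txn1, Prdx5, Prdx6 and Txnrd1, of which Prdx5 turned slightly negative with quantile normalization), 5 were lower (Prdx1, Prdx2, Prdx3, Prdx4 and Txn2), and Srxn1 did not pass the test. The test was limma on log2(normalized count + 1) with Benjamini-Hochberg adjustment over all 14936 genes tested and a threshold of 0.05, and all 10 genes passed the filter on low values. Across all genes tested, 55% passed, 26.2% higher and 28.7% lower in HF, so a gene that passes is common in this comparison. When only genes with a mean of at least 50 were tested, as all 10 have, 68.3% passed. In 9 of the 10 genes the values of the groups did not overlap, as in 62.2% of all genes tested. The median difference, HF minus the libraries labelled LF, was -0.76 (log2) over the 10 genes and -0.16 over all genes tested. In bulk RNA, fewer cells of a type and less RNA per cell cannot be told apart. Each p-value reflects only how far these libraries spread. In the authors' deposited table the 10 fold changes had the same 10 signs, and the same 9 genes had an adjusted p under 0.05.

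**Figure D1:**
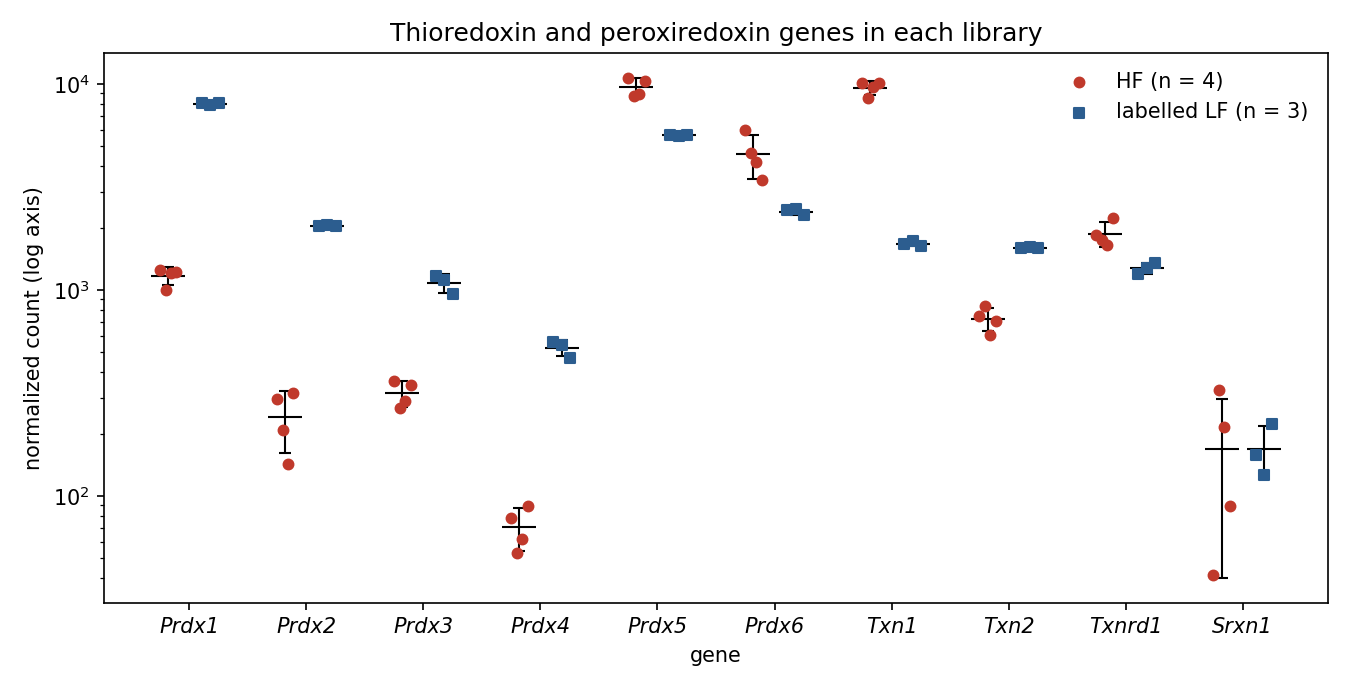
Normalized counts (log axis) of the 10 genes in each library, with 4 HF libraries left of the 3 libraries labelled LF, one point per library; black lines are means and bars the SD. On this deposited scale HF lies below in Prdx1 to Prdx4 and Txn2 and above in Prdx5, Prdx6, Txn1 and Txnrd1, while the groups overlap in Srxn1.

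Prdx1 (ENSMUSG00000028691, chr4:116685544-116700822, + strand) encodes the most widely expressed cytosolic peroxiredoxin of the kind that forms a disulfide between 2 subunits and is reduced by thioredoxin. It had 1254, 1002, 1206 and 1223 normalized counts in HF replicates 1 to 4, against 8057, 7933 and 8052 in the libraries labelled LF. The libraries of each group lay close together and far from the other group. The mean was 1171 ± 115 in HF, against 8014 ± 70.6 in the libraries labelled LF (n = 4 and n = 3, SD), which is 6.84-fold lower in HF. The log2 difference was -2.78 ± 0.10 (SE; limma adjusted p = 2.55e-07), and by its p the gene ranked 145 among the 14936.

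Prdx2 (ENSMUSG00000005161, chr8:84969587-84974834, + strand) encodes the cytosolic relative that is very abundant in red blood cells. HF replicates 1 to 4 had 296, 208, 144 and 317 normalized counts of it, against 2046, 2065 and 2044 in the libraries labelled LF. HF was low in every library and spread 2.21-fold between its lowest and highest, while the libraries labelled LF were nearly equal. The log2 difference of -3.15 ± 0.27 (SE; limma adjusted p = 3.34e-05) was the largest in size of the 10. Erythroid markers moved the other way between the groups. Their summed level was 9772, 7955, 5308 and 10983 in HF replicates 1 to 4, an order that Prdx2 shares, against 3163, 2865 and 4254 in the libraries labelled LF, and 3 of 6 tested were higher in HF and none lower. Their part in the Prdx2 values was not tested. In GENCODE M21, 11.5% of the exonic bases of Prdx2 are shared with genes on the other strand, Junb (42717 normalized counts in HF, against 8698 in the libraries labelled LF) and Rnaseh2a (69.5 against 381), and the sources used here do not say whether reads were counted by strand. The processed copy Prdx2-ps1 averaged 5.28 in HF, against 23.3 in the libraries labelled LF. How reads that match both Prdx2 and this copy were counted is not known here.

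Prdx3 (ENSMUSG00000024997, chr19:60864051-60874556, - strand) encodes the mitochondrial peroxiredoxin. It had 362, 269, 288 and 345 normalized counts in HF, against 1173, 1123 and 958 in the libraries labelled LF. The log2 difference was -1.78 ± 0.16 (SE; limma adjusted p = 4.65e-05), and the lowest library labelled LF stood well above the highest in HF. Prdx4 (ENSMUSG00000025289, chrX:155323918-155340754, - strand) encodes the peroxiredoxin of the endoplasmic reticulum, which passes oxidising equivalents from peroxide to protein disulfide isomerases. Its values were 78.4, 52.7, 61.7 and 89.8 in HF, against 561, 542 and 469.9 in the libraries labelled LF. The log2 difference was -2.90 ± 0.25 (SE; limma adjusted p = 3.69e-05). The HF values of Prdx4 rest on 41 to 70 reads per library. Plasma cells are a rich source of this gene, and the plasma cell gene Jchain had 0, 7.71, 35.9 and 0 normalized counts in HF, against 108, 74.3 and 1.37 in the libraries labelled LF. Of 8 B and plasma cell markers tested 1 was lower in HF (Sdc1, 16.7 against 199.9) and none higher. The summed list ranged from 5209 to 10848 in HF, against 7100 to 7913 in the libraries labelled LF. The part of such cells in the Prdx4 values was not tested.

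Prdx5 (ENSMUSG00000024953, chr19:6906697-6910106, - strand) encodes an atypical peroxiredoxin found in the cytosol, mitochondria and peroxisomes, whose disulfide forms within 1 subunit. It had 10685, 8734, 8944 and 10343 normalized counts in HF, against 5640.2, 5602 and 5676 in the libraries labelled LF. Each HF library stood above each library labelled LF, and the mean was 1.72-fold higher in HF, a log2 difference of 0.77 ± 0.08 (SE; limma adjusted p = 0.000129). This direction depends on the scaling between libraries. With equal library totals the difference was 0.25 (limma adjusted p = 0.0213), and with quantile normalization it turned to -0.076 (limma adjusted p = 0.429). Trmt112 lies on the other strand and shares 19.1% of the exonic bases of Prdx5; it averaged 405 in HF, against 637 in the libraries labelled LF.

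Prdx6 (ENSMUSG00000026701, chr1:161240112-161251219, - strand) encodes the peroxiredoxin with a single catalytic cysteine, which is reduced with glutathione and not with thioredoxin, and which also has phospholipase activity. It is abundant in lung epithelium and in alveolar macrophages. HF replicates 1 to 4 had 5988, 4613, 4172 and 3403 normalized counts, against 2436, 2469 and 2302 in the libraries labelled LF. The groups did not overlap, but HF spread 1.76-fold. The log2 difference was 0.89 ± 0.17 (SE; limma adjusted p = 0.00286) and lost its call when library totals were made equal (0.37, limma adjusted p = 0.126) and with quantile normalization (0.40, limma adjusted p = 0.0815). The summed level of 10 lung epithelial markers was 3169, 1725, 3426 and 831 in HF, against 321, 589 and 969 in the libraries labelled LF, with 4 of 9 tested higher in HF and 1 lower. That of 12 alveolar macrophage markers was 37256, 12444, 14054 and 12645 in HF, against 27420, 30076 and 27191 in the libraries labelled LF, with 4 of 10 tested higher and 2 lower. Most of the alveolar macrophage sum was Chil3 (30151, 6508, 9035 and 6822 in HF, against 18663, 20453 and 19842 in the libraries labelled LF). Marco was at 0 in every HF library and at 21.0, 0 and 0 in the libraries labelled LF. Of those that passed, Siglecf was higher (1301 in HF, against 52.0) and Ear2 was lower (994 against 4251). The part of either cell type in the Prdx6 values was not tested.

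Txn1 (ENSMUSG00000028367, chr4:57943373-57956411, - strand) encodes the cytosolic thioredoxin that reduces peroxiredoxins, ribonucleotide reductase and methionine sulfoxide reductases, and it moved opposite to Prdx1. Its levels were 10104, 8558, 9657 and 10070.1 normalized counts in HF, against 1678, 1726 and 1631 in the libraries labelled LF. The HF libraries were all high and close together, and the means were 9597 ± 722 in HF against 1678 ± 47.5 in the libraries labelled LF (n = 4 and n = 3, SD). The mean was 5.72-fold higher in HF, a log2 difference of 2.51 ± 0.08 (SE; limma adjusted p = 1.74e-07). The processed copy Txn-ps1 averaged 28.2 in HF, against 4.56 in the libraries labelled LF.

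Txn2 (ENSMUSG00000005354, chr15:77915047-77929006, - strand) encodes the mitochondrial thioredoxin. It had 745, 832, 607 and 706 normalized counts in HF, against 1591, 1625 and 1601 in the libraries labelled LF. Its log2 difference was -1.16 ± 0.13 (SE; limma adjusted p = 0.000134), so it fell in HF together with Prdx3, the peroxiredoxin it reduces. The cytosolic and the mitochondrial thioredoxin thus lay on opposite sides.

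Txnrd1 (ENSMUSG00000020250, chr10:82833951-82897712, + strand) encodes the cytosolic selenoenzyme that reduces Txn1. It had 1839, 1741, 1654 and 2245 normalized counts in HF, against 1199.5, 1284 and 1356 in the libraries labelled LF. The lowest HF library stood above the highest library labelled LF by less than the spread within HF. The log2 difference was 0.54 ± 0.12 (SE; limma adjusted p = 0.00708). With equal library totals it was 0.018 (limma adjusted p = 0.899), and with quantile normalization 0.38 (limma adjusted p = 0.0208).

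Srxn1 (ENSMUSG00000032802, chr2:152105516-152111376, + strand) encodes sulfiredoxin. It had 41.5, 325, 216 and 89.8 normalized counts in HF, against 159, 127 and 223 in the libraries labelled LF. The HF libraries lay on both sides of those labelled LF, 7.84-fold apart, on 36 to 253 reads each. The log2 difference was -0.37 ± 0.67 (SE; limma adjusted p = 0.658), its sign changed without HF replicate 1 (0.16), and the authors' deposited table gave -0.01 with an adjusted p of 0.989.

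**Figure D2:**
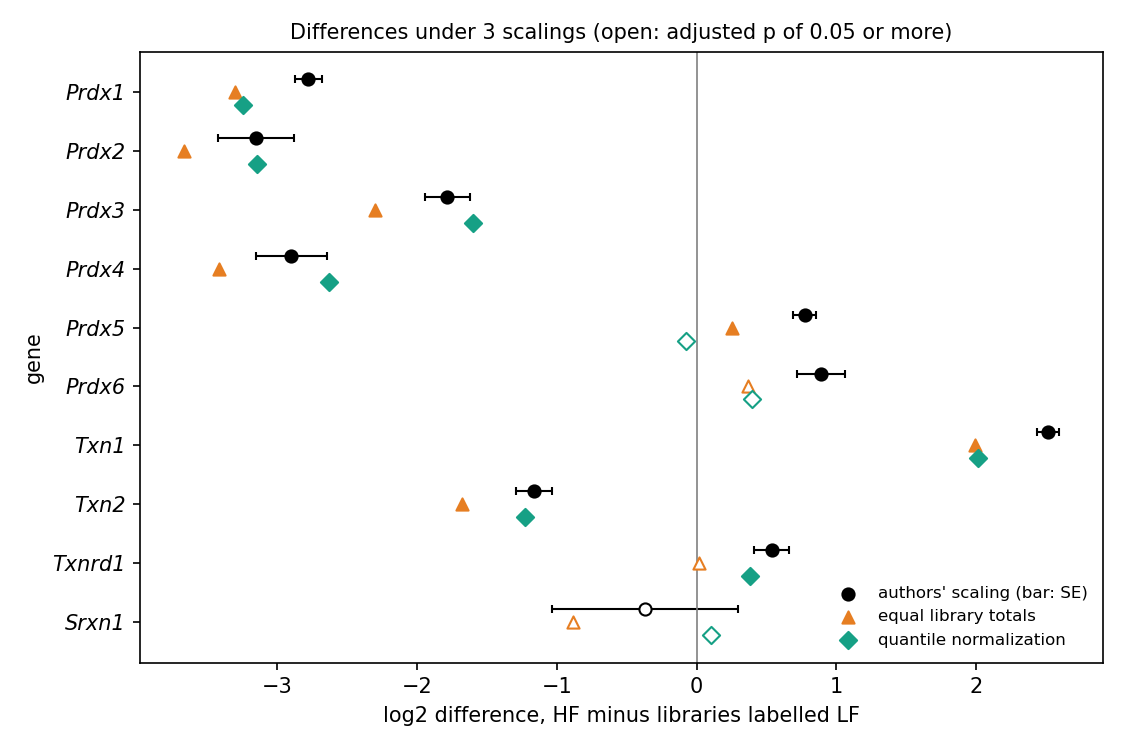
Log2 difference, HF minus the libraries labelled LF, of each gene under the deposited scaling, equal library totals and quantile normalization, with bars for the SE under the deposited scaling and open symbols where the adjusted p was 0.05 or more. Prdx1 to Prdx4 and Txn2 stay below 0 and Txn1 stays above it in each, while Prdx5 and Srxn1 lie on both sides of 0 and Txnrd1 comes to 0.018 with equal totals.

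Prdx1, Prdx2, Prdx3, Prdx4, Txn1 and Txn2 kept their direction and their call under all 19 other ways of processing that were run. With equal library totals or quantile normalization 7 of the 10 genes passed, beside 60.2% and 53.4% of all genes tested. Equal library totals moved the median of all genes by -0.51 (log2) and took the share of genes higher in HF to 18.1% of those tested, against 26.2% under the deposited scaling. It called 2696 genes higher and 6295 lower, against 3917 and 4294.

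The makeup of the family within a library does not depend on the factor by which each library is scaled. For this, levels were divided by the exonic length of each gene in GENCODE M21. That length counts every annotated exon, and which transcripts were present was not determined. Shares and orders of level between genes depend on it. Of the summed peroxiredoxin level per kb, Prdx5 held 73.2% ± 2.31 in HF, against 35.5% ± 0.65 in the libraries labelled LF (n = 4 and n = 3, SD). Prdx6 held 15.3% ± 2.92 in HF, against 6.73% ± 0.18. The share of Prdx1 was 6.24% ± 0.52 in HF, against 35.5% ± 0.59 in the libraries labelled LF, where it was as large as that of Prdx5. Without division by length, those libraries averaged 8014 normalized counts of Prdx1 and 5639 of Prdx5. Prdx1 to Prdx4, which are the members of the family reduced through a disulfide between subunits, together held 11.5% ± 0.70 in HF, against 57.8% ± 0.51. The lowest and highest shares of these 4 genes together were 10.7% and 12.4% in HF, against 57.2% and 58.2%, so the groups stood far apart. The summed level itself does depend on the scaling. It was 6181 ± 645 normalized counts per kb in HF, against 7426 ± 102 in the libraries labelled LF, 1.201-fold lower in HF. With equal library totals, tried after seeing the data, it was 5382 ± 581 in HF, against 9271 ± 166, 1.72-fold lower. Of the level per kb of the pair of thioredoxins, Txn1 held 98.1% ± 0.36 in HF, against 80.7% ± 0.35 in the libraries labelled LF. The lengths used were 1.051 kb for Txn1 and 4.208 kb for Txn2. Without that division, the libraries labelled LF averaged 1678 normalized counts of Txn1 and 1606 of Txn2.

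**Figure D3:**
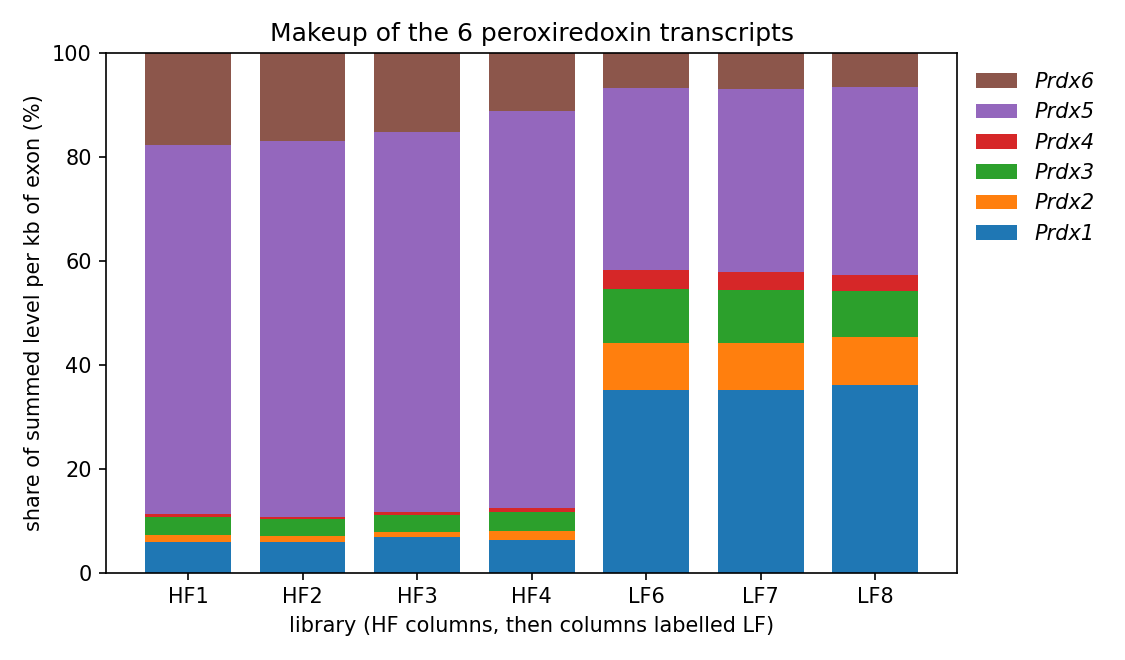
Share (percent) of each peroxiredoxin gene in the summed peroxiredoxin level per kb of exon, one stacked bar per library, HF left of the libraries labelled LF. Prdx5 takes 71.0% to 76.4% of each HF bar and 35.1% to 36.3% of each bar labelled LF, where Prdx1 takes 35.1% to 36.1%.

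In order of level per kb, HF had Txn1 (9131 normalized counts per kb), Prdx5 (4524), Prdx6 (946), Prdx1 (385), Txnrd1 (264), Prdx3 (214), Txn2 (172), Prdx2 (79.1), Srxn1 (59.7) and Prdx4 (33.5). Among neighbours in that order, the ranges over libraries overlapped between Txnrd1 and Prdx3, between Prdx3 and Txn2, between Prdx2 and Srxn1 and between Srxn1 and Prdx4. The libraries labelled LF began with Prdx5 (2636) and Prdx1 (2634), which overlapped, and went on with Txn1 (1597), Prdx3 (734), Prdx2 (673), Prdx6 (500.1), Txn2 (382), Prdx4 (249), Txnrd1 (181) and Srxn1 (60.2). There the only other neighbours that overlapped were Prdx3 and Prdx2. Per kb, Txn1 thus led the 10 genes in HF and stood behind Prdx5 and Prdx1 in the libraries labelled LF. Without division by length, HF averaged 9676.5 normalized counts of Prdx5 and 9597 of Txn1.

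Ratios of 2 genes in the same library are likewise free of that factor. The log2 ratio of Txn1 to Prdx1 was 3.01, 3.09, 3.00 and 3.04 in HF, against -2.26, -2.20 and -2.30 in the libraries labelled LF, a difference of 5.29. The ratio of Txn1 to Txn2 averaged 3.74 ± 0.27 in HF, against 0.06 ± 0.03, a difference of 3.67. That of Prdx3 to Prdx1 averaged -1.89 ± 0.12 in HF, against -2.89 ± 0.16, a difference of 0.997, the mitochondrial gene having fallen less than the cytosolic one. A two-sided exact permutation test gave p = 0.0571 for each of the 3 ratios, also after adjustment over the 3, which is the smallest p that 4 against 3 libraries allow. The pairs were chosen with their values known.

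The upstream sequences of Prdx1 and Txn1 are shown because these genes had the lowest p of those lower and of those higher in HF. They come from RefSeq (build GRCm38.p6), 5′ to 3′ on the strand of the gene, from 250 bases before the transcript start. The Prdx1 stretch has 195 bases, chr4:116685349-116685543 (+), and ends where GENCODE M21 begins the gene. The Txn1 stretch has 250 bases, chr4:57956412-57956661 (-). Capitals mark a match to the core of the antioxidant response element, TGACNNNGC on either strand, to which NRF2 with a small MAF protein binds.
Prdx1: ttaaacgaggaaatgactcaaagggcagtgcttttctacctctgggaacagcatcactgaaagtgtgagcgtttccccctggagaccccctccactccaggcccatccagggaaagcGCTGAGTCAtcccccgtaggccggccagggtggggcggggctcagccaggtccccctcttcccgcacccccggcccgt
Txn1: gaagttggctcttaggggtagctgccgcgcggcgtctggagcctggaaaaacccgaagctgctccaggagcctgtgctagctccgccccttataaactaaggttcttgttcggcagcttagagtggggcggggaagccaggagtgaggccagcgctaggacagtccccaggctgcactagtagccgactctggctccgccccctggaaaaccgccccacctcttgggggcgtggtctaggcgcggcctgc

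Of the 10 genes, 9 matched a promoter entry (all but Prdx6), and 3 of the 9 held the core in a window of 250 bases before to 50 after a start. Counted the same way, the core occurs in 14.0% of all 27025 genes with such a window. Besides Prdx1, the other matches were in Srxn1 at chr2:152105542-152105571 (+) and in Txnrd1 at chr10:82859104-82859133 (+), shown in stretches of 30 bases with the match in capitals, here too on the reverse strand.
Srxn1: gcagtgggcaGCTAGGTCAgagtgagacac
Txnrd1: ctggatttttGCTTTGTCAttctgacacgg

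The Prdx1 match, read on the other strand as TGACTCAGC, holds an AP-1 site (TGANTCA) inside the core, a combination found in 0.454% of all windows. The 3 genes with a match lay on different sides of the comparison, with Prdx1 lower, Txnrd1 higher and Srxn1 not past the test. Such a match is a description of letters, and no binding was measured.

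Other genes of the same chemistry were read in 9 lists of 77 genes. Of the 75 tested, 27 were higher in HF, 30 were lower and 18 did not pass. That is 76% called against 55% of all genes tested, with a median difference of -0.01 (log2) against -0.16. When only genes with a mean of at least 50 were tested, 68.3% of all genes tested passed. Of the listed genes 54 passed there, out of fewer than the 75 above, so their share is not 54 of 75.

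**Figure D4:**
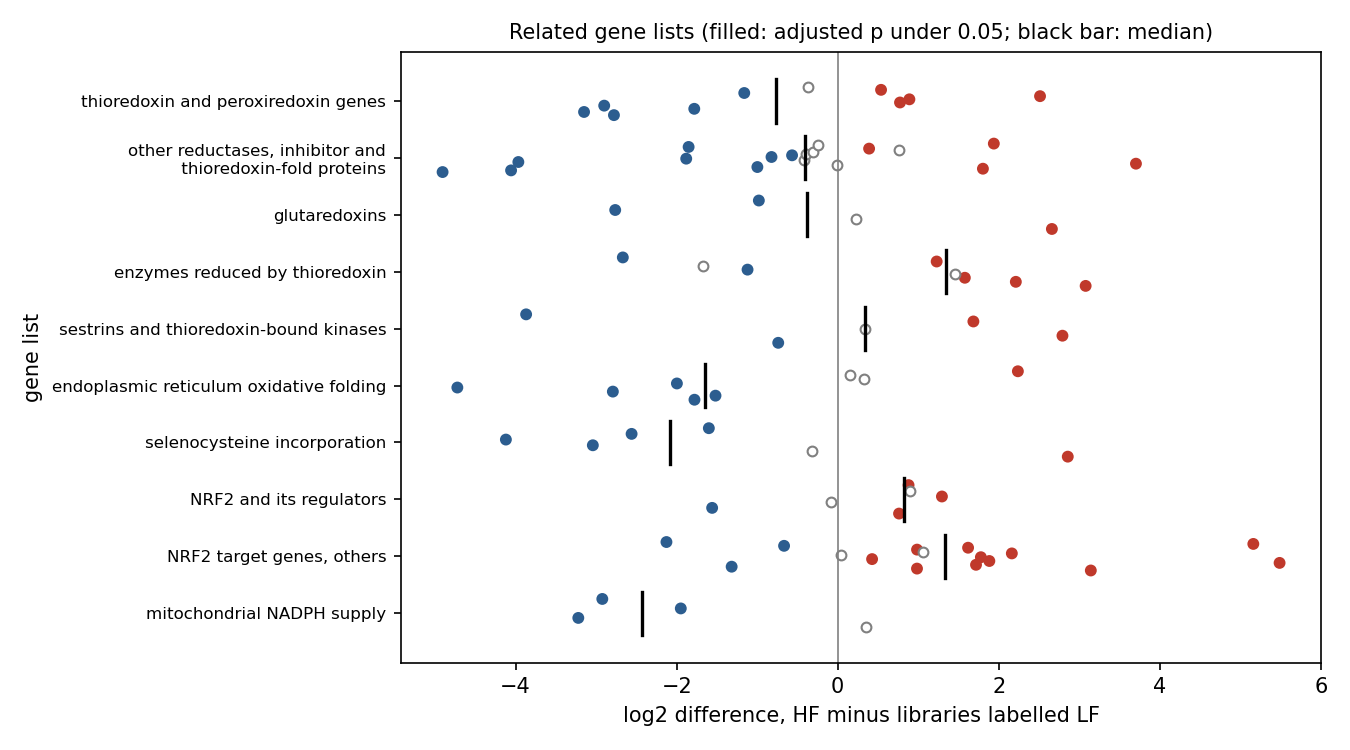
Log2 difference, HF minus the libraries labelled LF, of each tested gene of the 9 related lists and of the 10 genes, one point per gene, red where higher and blue where lower in HF, open where the test was not passed, with a black bar for the median of each list. The lists of NRF2 targets and of enzymes reduced by thioredoxin have medians of 1.34, and that of mitochondrial NADPH supply has a median of -2.44.

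Among 18 tested thioredoxin reductases, inhibitors and thioredoxin-fold proteins, 4 were higher in HF, 8 lower and 6 not past the test, with a median of -0.40. Txnrd2, the mitochondrial thioredoxin reductase, had 3.46, 0, 146 and 19.2 normalized counts in HF, against 350, 326 and 289.7 in the libraries labelled LF. HF replicate 3 stood apart from the other HF libraries, and the call (log2 difference -4.91 ± 1.48, SE, as in the values that follow; limma adjusted p = 0.0229) was lost with edgeR on the recovered reads (-2.92, adjusted p = 0.0959). It was also lost without HF replicate 1 (limma adjusted p = 0.0556), without LF6 (0.067), without LF7 (0.0654) and without LF8 (0.0614). Txnip, which binds and blocks the active site of thioredoxin, averaged 37058 in HF, against 10603 in the libraries labelled LF (1.80 ± 0.07; 0.83 with quantile normalization). Txnl4b, a thioredoxin-like splicing protein, averaged 1236 in HF, against 92.7 (3.70 ± 0.18). Txndc5, a disulfide isomerase of the endoplasmic reticulum, averaged 148 in HF, against 2226 (-3.97 ± 0.27).

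Of the enzymes that supply NADPH inside mitochondria, 3 of 4 tested were lower in HF and none was higher. They were Idh2, which makes NADPH from isocitrate (133 in HF, against 942 in the libraries labelled LF; -3.22 ± 0.67), and the folate enzymes Mthfd2 (171 against 623; -1.95 ± 0.31) and Mthfd1l (39.1 against 263; -2.92 ± 0.49).

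Of 8 enzymes that thioredoxin reduces, 4 were higher in HF, 2 lower and 2 not past the test. The methionine sulfoxide reductases, which repair oxidised methionine, were the named ones. Msra averaged 4736 in HF, against 555 in the libraries labelled LF (3.08 ± 0.14), and Msrb1 averaged 11734 against 2530.2 (2.21 ± 0.07). Msrb2, a mitochondrial form, averaged 193 in HF, against 60.3 (1.58 ± 0.37), and so was higher in HF like Msra and Msrb1. Of 4 glutaredoxins, which draw on glutathione for the same kind of reduction, Glrx was higher in HF (5837 against 897; 2.66 ± 0.19). Glrx3, a factor of iron and sulfur cluster handling, was lower (197 against 1212; -2.76 ± 0.39), as was the mitochondrial Glrx5 (263 against 505; -0.98 ± 0.24), whose call was lost with quantile normalization (-0.58, limma adjusted p = 0.0667).

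In the list of sestrins and thioredoxin-bound kinases, 2 of 5 were higher in HF and 2 lower. Sesn2, a stress-induced sestrin, averaged 3061 in HF, against 441 in the libraries labelled LF (2.79 ± 0.12). Map3k5 encodes ASK1, the kinase that reduced thioredoxin holds inactive, and it averaged 7143 in HF, against 2221 (1.68 ± 0.07). The related kinase Map3k6 had 16.1, 0, 1.12 and 71.8 in HF, against 87.7, 110 and 116 in the libraries labelled LF. Its log2 difference was -3.87 ± 1.40 (limma adjusted p = 0.0451). The call was lost with edgeR (-2.23, adjusted p = 0.194) and without any 1 library other than HF replicate 4 (limma adjusted p = 0.052 to 0.116). It was also lost with DESeq2 (adjusted p = 0.163) and with quantile normalization (limma adjusted p = 0.0697). Only 6 of the 19 alternatives kept it. In the oxidative folding list of the endoplasmic reticulum 5 of 8 were lower in HF and 1 higher, with a median of -1.65. The disulfide isomerases Pdia3 (2996 in HF, against 8553; -1.52 ± 0.09), Pdia4 (227 against 1557; -2.79 ± 0.22) and Pdia6 (1048 against 4081; -1.997 ± 0.19) fell with Prdx4, while Qsox1, a sulfhydryl oxidase, rose (1342 against 281; 2.24 ± 0.20).

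Txnrd1, Txnrd2, Msrb1 and Sephs2 each need selenocysteine, which is read from a TGA codon that elsewhere ends translation. The codon is shown in capitals in 30 bases of the coding strand of GENCODE M21 (build GRCm38), because in both reductases a single codon separates it from the stop, so that the selenocysteine is the next to last residue. The positions are chr10:82896016-82896045 (+) for Txnrd1, chr16:18477751-18477780 (+) for Txnrd2, chr17:24740146-24740175 (+) for Msrb1 and chr7:127273716-127273745 (-) for Sephs2.
Txnrd1: gacatcctccagtctggctgcTGAggttaa
Txnrd2: gagcctactgtgactggttgcTGAggctaa
Msrb1: caatcaagattcTGAatatttagcagctca
Sephs2: ggcatgaagggcTGAggctgcaaggtcccc

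Of 6 genes that make or insert selenocysteine, 1 was higher in HF, 4 were lower and 1 did not pass. Sephs2, the selenophosphate synthetase, rose (6884 in HF, against 950.3 in the libraries labelled LF; 2.86 ± 0.09). Eefsec, the elongation factor for selenocysteine, had 18.4, 20.6, 114 and 21.8 in HF, against 280.2, 251 and 266 (-3.04 ± 0.63). Sepsecs, which converts the amino acid on its tRNA, had 0, 36.0, 114 and 37.2 in HF, against 374, 346 and 327 (-4.12 ± 1.43; -2.68 without HF replicate 1). Its call (limma adjusted p = 0.039) was lost without HF replicate 2 (0.0642), HF replicate 4 (0.0562), LF6 (0.0984), LF7 (0.0953) or LF8 (0.0921). The Sepsecs call was also lost with a pseudocount of 0.5 (limma adjusted p = 0.0553), no filter (0.0671) and no trend (0.0693). It was kept under 11 of the 19 alternatives. A gene on the other strand shares 36.4% of the exonic bases of Sephs2, 11.0% of those of Eefsec, 19.4% of those of Txnip and 10.9% of those of Keap1. Those genes had low means over the 7 libraries, 4.97 normalized counts for Gm44729 beside Sephs2, 3.97 for Gm44264 beside Eefsec, 76.6 for Gm15441 beside Txnip and 18.9 for Gm16754 beside Keap1.

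NRF2, the main activator of antioxidant response elements, and its partners formed a list in which 3 of 6 were higher in HF and 1 was lower. Nfe2l2, which encodes NRF2, averaged 8298 in HF, against 4859 in the libraries labelled LF (0.76 ± 0.11), a difference that fell to 0.24 when library totals were made equal (limma adjusted p = 0.0811) and turned to -0.036 with quantile normalization. Keap1, which targets NRF2 for degradation, was lower (276 against 788; -1.56 ± 0.26). The partners Mafg (2676 against 1094; 1.29 ± 0.12) and Mafk (2292 against 1244; 0.88 ± 0.13) were higher, by 0.77 and 0.36 with equal library totals. Of 16 NRF2 target genes outside the system, 11 were higher in HF, 3 lower and 2 not past the test, with a median of 1.34. Slc7a11, the cystine carrier, averaged 7573 in HF, against 177 (5.49 ± 0.36), Osgin1 5050.2 against 142 (5.16 ± 0.15), Nqo1, a quinone reductase, 129.6 against 17.0 (3.14 ± 0.56), and Fth1, the ferritin heavy chain, 46460 against 15117 (1.62 ± 0.08; 0.56 with quantile normalization). Txn1, Txnrd1, Prdx1 and Srxn1 are themselves known as NRF2 targets, and of these Txn1 and Txnrd1 were higher, Prdx1 was lower and Srxn1 did not pass the test.

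By the distance between profiles on the log2 scale over the 7 libraries, the genes most like Prdx1 among 9602 candidates were Ahr (distance 0.24), Fkbp1a (0.26) and Dbi (0.44). Those most like Txn1 were Pbx2 (0.19), Ip6k1 (0.20) and Rcsd1 (0.24).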

How the data were processed

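RNA-seq of 7 libraries was analysed, 4 HF and 3 labelled LF. Tools listed in the submitters' processing notes, without roles, are DESeq2 1.20.0, featureCounts 1.6.3 and STAR 2.6.1b. The table deposited by the authors holds normalized counts per gene (a non-negative signal). In each library 100% of values lay within 0.01 of a whole multiple of 1 read, so whole reads were recovered. Per the file headers, the authors also deposited log2 fold changes with errors, the score of their test, and raw and adjusted p-values, used only where that table is named. No library column was left out (0 unmapped).

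Genes were kept at a mean of 10 normalized counts or more and compared by limma 3.58.1 (trend=TRUE, R 4.3.3) as log2(normalized count + 1), HF against LF, with Benjamini-Hochberg adjustment over all genes tested. A larger pseudocount shrinks changes of low genes, as in Txnrd2 (-5.21 with 0.5, -4.91 with 1 and -4.04 with 5). Such values are not always cautious, as edgeR gave Txnrd2 a smaller difference (-2.92). The test was also tried on simulated data in which few genes changed and all had the same dispersion. The real data differ in this, so nothing is concluded from that trial. The alternatives changed the pseudocount (0.5 or 5), the filter (none, or a mean of 50), the scaling (library totals made equal, or quantiles), the limma settings (no trend, robust prior, array weights) or the tool, or left out 1 library. The other tools, run on recovered reads, were DESeq2 1.42.0 and edgeR 4.0.16, which called 7624 genes under the size factors of the authors. Ratios were tested by exact permutation (scipy 1.17.1). Lengths, positions and overlaps came from GENCODE M21, and promoters from RefSeq. Figures used matplotlib 3.10.9.

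The genes and lists were chosen with earlier results of these data known. Of each related list, the gene with the highest mean and up to 3 with the largest difference are named, among those past the test, without overlap and with a mean of at least 50. The design text counts mice per group. Reads from amplified libraries are not independent molecules.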

Additional observations from a re-analysis of the deposited data

Results flagged for a closer look

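Of 60 genes examined in the 4 HF libraries, 6 had 1 library far from the other 3. The rule marks about 1 in 20 by chance only where values are normally distributed. Counts that reach down to 0 need not be, so the 6 are described and not set against that rate. None of the 10 genes of the system was among them. HF replicate 3 stood apart in 3 genes. It had 146 normalized counts of Txnrd2, the mitochondrial thioredoxin reductase, where the other HF libraries had 0 to 19.2. It had 114 of Eefsec, where the others had 18.4 to 21.8, and 2594 of Sesn2, where the others had 3185 to 3244. The same library had the highest HF sum of platelet markers (3796, with 809 to 1031 in the others). Its sum of 14 monocyte and interstitial macrophage markers was 32369, with 23017, 27483 and 30415 in the others. Single genes of that list went both ways. C1qb was highest in HF replicate 3 (2028, with 5.76 to 553 in the others), while Ly6c2 was lowest there (2839, with 2999.5 to 6199 in the others). The part of such cells in the values of HF replicate 3 was not tested. HF replicate 4 had 8397 of the glutaredoxin Glrx (4740.3 to 5318 in the others) and 12859 of Msrb1 (11279 to 11504 in the others). HF replicate 1 had 287 of the mitochondrial folate enzyme Mthfd2, where the others had 121 to 149.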

How the results depend on the processing

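Under 19 alternatives, Prdx1 to Prdx4, Txn1 and Txn2 kept their direction and their side of the threshold, and 9 genes of the 10 passed under all but equal library totals and quantile normalization, where 7 did. With equal library totals, Prdx6 (0.37) and Txnrd1 (0.018) no longer passed. With quantile normalization, Prdx6 (0.40) no longer passed, while Prdx5 (-0.076), Srxn1 (0.11) and Nfe2l2 (-0.036) changed sign. Srxn1 was 0.00205 with DESeq2, and -0.82 to 0.16 when 1 library was left out. The cause was not tested. Of 589 values of 31 other named genes, 559 kept direction and side, 29 no longer passed and 1 changed sign. Without 1 library, 6450.0 to 8464 genes passed, the fewest without 1 of the 3 libraries labelled LF. Of the related genes, 47 to 62 passed over the alternatives. No paired analysis was possible because the columns labelled LF carry numbers other than those of the labels. The labels also link no HF library to a library labelled LF, so matching numbers alone would not have made the groups paired. In HF, Prdx4 rests on 41 to 70 reads per library, Srxn1 on 36 to 253, and of the related genes Map3k6 on 0 to 56, Sepsecs on 0 to 102 and Txnrd2 on 0 to 130. The cell makeup of the libraries labelled LF limits every comparison.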
